A study of Mus musculus with 18 samples.

Results

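The LIN28, TRIM71 and let-7 axis was followed here as 9 genes, Lin28a, Lin28b, Dis3l2, Trim71, Igf2bp1, Igf2bp2, Igf2bp3, Hmga1 and Hmga2, of the 51467 genes in the count table. They were chosen by name as known members of the pathway, and each symbol was matched to its Ensembl identifier. All 9 passed the filter on low counts (3 CPM, a count relative to the library total, in 3 or more libraries), so none was too low to test. Lin28b passed only through Ddx6 knockout (KO) libraries, where 6 of 9 reached 3 CPM and 0 of 9 wild-type (WT) libraries did.

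The cells were V6.5 mouse embryonic stem cells (ESCs), WT or Ddx6 KO, and both genotypes were grown with serum, LIF and the 2 inhibitors of the 2i medium. DDX6 is an RNA helicase that acts in mRNA decapping and translational repression. Cycloheximide was given to all cultures to hold ribosomes in place, and each lysate was separated on a sucrose gradient into a monosome, a low polysome (2 to 4 ribosomes) and a high polysome fraction (4 or more). There were 3 gradients per genotype, hence 18 libraries in 6 groups of 3. The first KO gradient was of clone 1 and the other two were of clone 2, so each KO line is a single clone and clone 1 has no replicate. No unfractionated RNA was analysed here, so every level is a share of the mRNA in its own fraction, and fewer mRNA molecules per cell cannot be told apart from a shift to fractions that were not collected.

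In this pathway, LIN28A and LIN28B bind let-7 precursors and block their maturation, and uridylated precursors are then degraded by the exonuclease DIS3L2. Mature let-7 in turn represses mRNAs that carry matches to its seed, and Lin28a, Lin28b, Trim71, the Igf2bp genes and Hmga2 are textbook targets. The axis is known as a switch between the embryonic and the differentiated state, with LIN28 and TRIM71 high in pluripotent cells and let-7 high in differentiated ones.

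Most of these genes carry a match to the let-7 seed in the 3′ UTR, so the seed is shown first. The mature sequences below (RefSeq, build GRCm38.p6, 5′ to 3′) have bases 2 to 8, the seed, in capitals. In RefSeq 11 mature mouse miRNAs share this seed, namely let-7a to let-7g, let-7i, let-7k, miR-98 and miR-1961. let-7j differs in the last base of the seed.
let-7a-5p: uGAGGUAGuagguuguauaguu
let-7d-5p: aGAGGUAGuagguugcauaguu
let-7g-5p: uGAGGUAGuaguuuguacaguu
miR-98-5p: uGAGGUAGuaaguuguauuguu
let-7j: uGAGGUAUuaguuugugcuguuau

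LIN28 proteins are known to recognise the letters GGAG in the precursor. These letters follow the 5′ arm in 9 of 13 hairpins of let-7 and miR-98, and are not found there in 4, those of let-7b, let-7c-2, let-7k and miR-98. The stretches below show them in capitals, with up to 10 bases on either side.
let-7g precursor: acccgguacaGGAGauaacuguac
let-7d precursor: uugcccacaaGGAGuuaacuauac

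The perfect match to the let-7 seed in an mRNA is the 8mer CTACCTCA (sense strand only). In annotated 3′ UTRs it was found in 7 of the 9 genes. Trim71 held 4 copies, Igf2bp1 held 3, Lin28a held 2, and Lin28b, Igf2bp2, Igf2bp3 and Hmga2 held 1 each. Of 11689 tested coding genes with a 3′ UTR, 3.47% had this 8mer, and Trim71 was 1 of 2 genes with 4 or more. Long 3′ UTRs hold more matches of any kind. Among 3′ UTRs within 20% of the length of that of Trim71 (5512 nt), 11.4% had an 8mer, and among those near Lin28a (2775 nt) the share was 4.66%. The shorter matches CTACCTC and TACCTCA that lie outside an 8mer added 6 sites in Hmga2, 4 in Lin28b, 2 each in Trim71 and Igf2bp1, and 1 each in Igf2bp2 and Hmga1. No match was found in the 347 nt of Dis3l2. A match is a description of the annotation and not of binding. One 8mer is shown for each of the 4 genes on which the results turn most, with the 8mer in capitals, the 18 bases before it and the GRCm38 position of the whole stretch, all on the minus strand.
Lin28a (chr4:134005189-134005214): agtgcacagcctgttgaaCTACCTCA
Lin28b (chr10:45381022-45381047): ttcacccgggcgggaagtCTACCTCA
Trim71 (chr9:114512472-114512497): tacaacattgcctaagtcCTACCTCA
Hmga2 (chr10:120364224-120364249): ggcgccgacattcaatttCTACCTCA

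**Figure D1:**
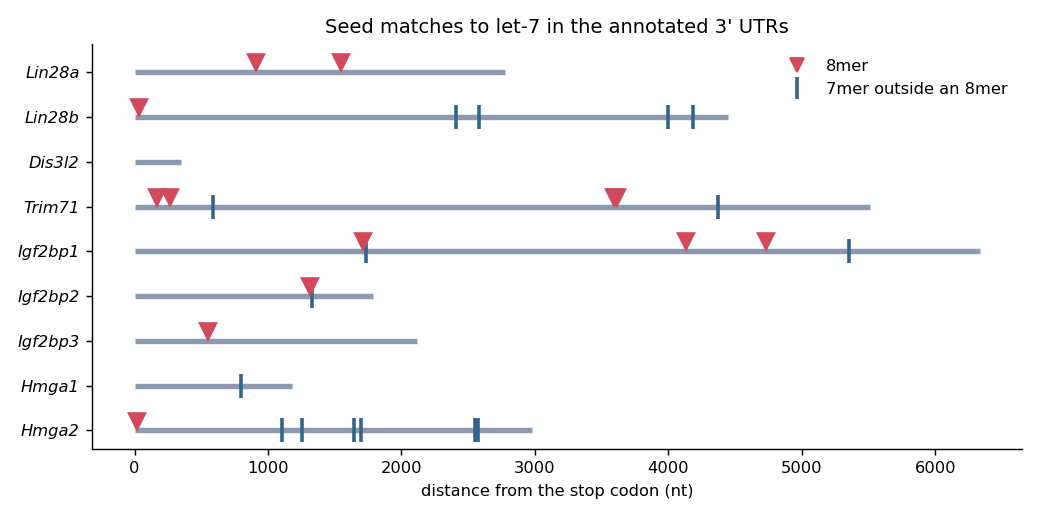
Matches to the let-7 seed along the annotated 3′ UTR of each gene, with the distance from the stop codon in nt on the horizontal axis, bars for the 3′ UTR, triangles for 8mers and ticks for 7mers outside an 8mer. Trim71 has 4 triangles, of which the pair at 3591 and 3617 nt overlaps in the drawing, and Dis3l2 has none.

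The let-7 miRNAs themselves were not measured, because the libraries were made from the 3′ ends of polyadenylated RNA. Of the 11 let-7 loci listed in the table, 8 had 0 counts in all 18 libraries, and a count of 0 allows up to 3 counts, or 0.261 to 1.18 CPM, per library. The other 3 loci, Mirlet7a-1, Mirlet7b and Mirlet7f-1, had 58 counts in all and at most 6 in a library. These values do not bear on the level of mature let-7.

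Library totals ranged from 2543617 to 11474550 counts, with WT monosome libraries the shallowest. Ddx6, the targeted gene, lay between 143 and 212 CPM in the 9 WT libraries and between 9.68 and 82.7 CPM in the 9 KO libraries, which did not overlap. Clone 1 kept 29.1% to 43.8% of the WT mean and clone 2 kept 5.08% to 17.4%. A 3′ read need not cover the edited site, so this checks the mRNA level only. The 9 ESC markers examined, among them Pou5f1, Nanog and Zfp42, were all tested. Their summed level was 3085 to 3159 CPM in WT and 3497 to 4355 CPM in KO monosomes, 2914 to 4102 and 3024 to 4338 CPM in low polysomes, and 5235 to 6474 and 3760 to 4807 CPM in high polysomes, so KO lay above WT in the monosome and below it in the high polysome without overlap. The sum leans on Dppa5a, with means of 767 CPM in WT and 1400 CPM in KO monosomes and 1998 and 829 CPM in high polysomes. Tdgf1 had 555 and 840 CPM, then 831 and 560 CPM. Of the 9 markers, 2 were raised and 2 lowered in the KO monosome, and 1 raised and 4 lowered in the high polysome. Of the markers of other cell types, 0 of 4 endoderm, 1 of 3 mesoderm, 1 of 3 neural and 2 of 5 fibroblast genes passed the filter. Col1a2, Lum, Dcn and Foxa2 had at most 5 counts in any library.

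To ask how the axis stands in WT cells, translation level was examined as the abundance in the high polysome over that in the monosome. Trim71 and Igf2bp2 were the 2 genes of 9 that were higher in the high polysome, and 0 were lower. Over all 12705 genes tested, 61.1% were called in this comparison (28.9% higher, 32.2% lower). Trim71 encodes an RNA-binding ubiquitin ligase that represses mRNAs in stem cells. Its monosome levels in WT gradients 1 to 3 were 144, 151 and 130 CPM, rising to 200, 207 and 243 CPM for low polysomes and 263, 252 and 275 CPM for high polysomes. The high polysome exceeded the monosome in every gradient, and the groups did not overlap. By limma the difference was 0.90 on the log2 scale (SE 0.12, adjusted p = 1.11e-06).

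Igf2bp2 encodes a protein that binds and stabilises mRNAs. It had 60.5, 80.4 and 66.7 CPM in the WT monosome against 117, 112 and 117 CPM in the WT high polysome, a difference of 0.73 (SE 0.14, limma adjusted p = 0.000165). Its paralogs did not pass the threshold. Igf2bp1 differed by -0.21 (95% interval -0.45 to 0.023, limma adjusted p = 0.109) and Igf2bp3 by -0.033 (-0.29 to 0.23). Both upper bounds lie below the value of Igf2bp2, and the difference between the paralogs was not tested. Lin28a differed by 0.19 (-0.27 to 0.66), Hmga2 by -0.35 (-0.74 to 0.039) and Lin28b by -0.89 (-1.81 to 0.035), and none of these passed the threshold. Lin28b passed it without WT gradient 3 (-1.41, limma adjusted p = 0.0358) and also once the length trend was taken out (-1.11, limma adjusted p = 0.0308), while without WT gradient 1 the value was -0.30 (limma adjusted p = 0.625). For Hmga1 and Hmga2, which have the shortest coding sequences of the 9 genes, the sign of this comparison depended on the treatment of coding length. After that correction, Hmga2 was higher in the high polysome (0.57, limma adjusted p = 0.0162), and Hmga1 had 0.49 (limma adjusted p = 0.507) in place of -0.45.

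**Figure D2:**
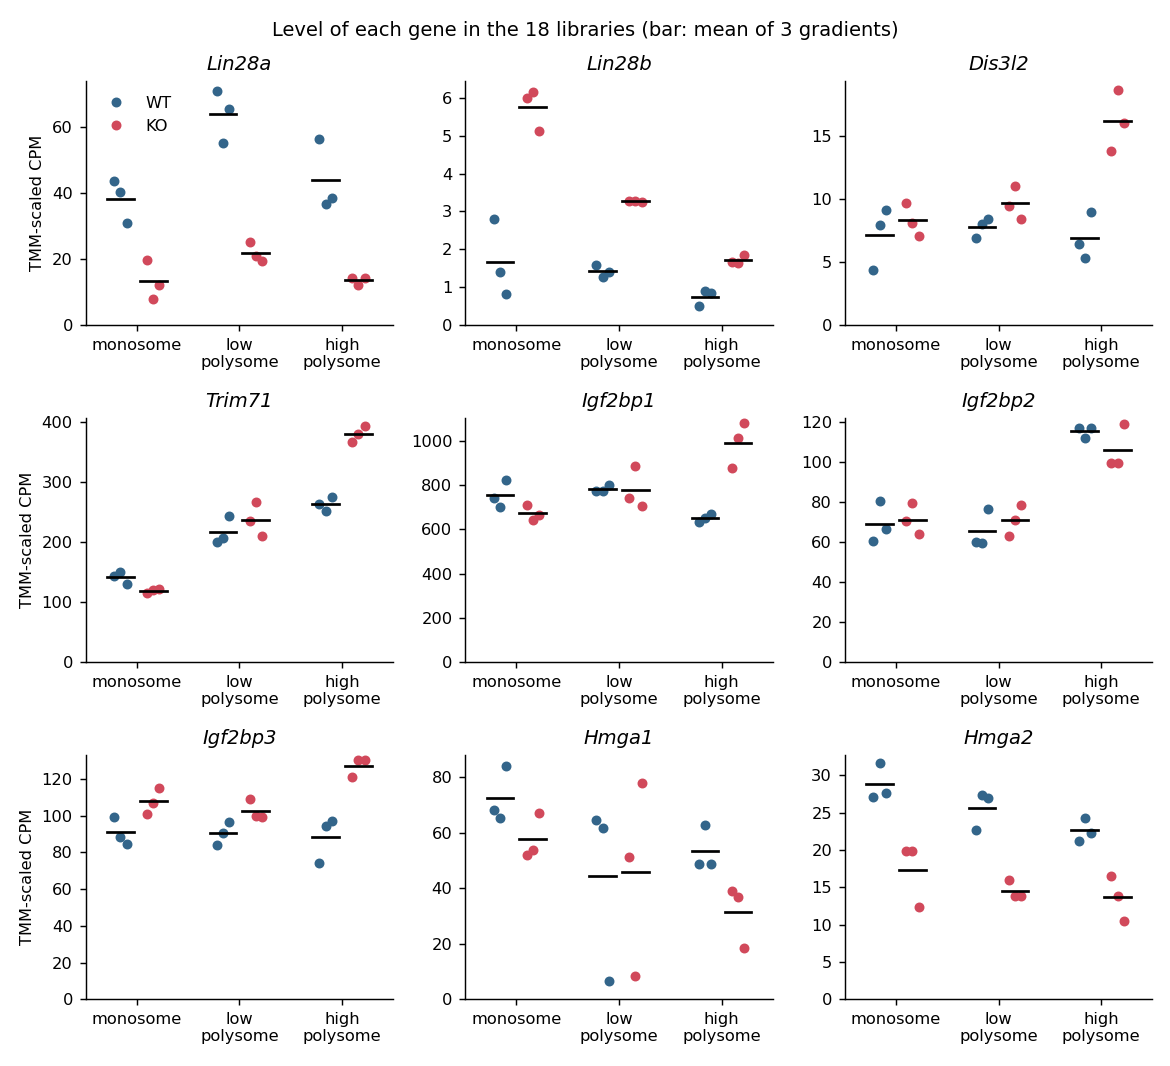
TMM-scaled CPM of each gene by fraction, with 1 point per library (blue WT, red KO, gradients 1 to 3 from left to right) and a bar for the mean of 3. Lin28a and Hmga2 lie lower in KO in each fraction, Lin28b lies higher, and Trim71, Igf2bp1 and Dis3l2 differ most in the high polysome.

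Next, levels in KO were compared with WT within each fraction. The LIN28 paralogs moved in opposite directions, Lin28a down and Lin28b up in all 3 fractions, and Hmga2 fell in all 3. In the high polysome Dis3l2, Trim71, Igf2bp1 and Igf2bp3 also rose. The count was 1 raised and 2 lowered of 9 in the monosome, where 38.6% of all genes were called (18.6% raised, 20.1% lowered). It was again 1 raised and 2 lowered in low polysomes, where 47.7% were called (23.4% raised, 24.3% lowered). For high polysomes it was 5 raised and 2 lowered, with 46.5% of all genes called (25.3% raised, 21.1% lowered). The median change of the 9 genes was -0.17, 0.13 and 0.53 in that order, and that of all genes was -0.033, -0.027 and -0.0072. Lin28b, which passed the filter only through KO libraries, is 1 of the raised genes in each fraction. Without it the counts of 8 genes were 0 raised and 2 lowered, 0 and 2, and 4 and 2, with medians of -0.20, 0.13 and 0.20. The fractions of a gradient come from 1 culture, so the 3 comparisons are not independent.

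Lin28a (ENSMUSG00000050966.9, chromosome 4, 134003330 to 134018841, minus strand) encodes the LIN28 paralog that predominates in ESCs. In the monosome it had 43.8, 40.4 and 30.9 CPM in WT and 19.9, 7.98 and 12.2 CPM in KO. Low polysome levels were 70.9, 55.3 and 65.7 CPM in WT against 25.1, 20.9 and 19.4 CPM in KO. In the high polysome WT had 56.5, 36.8 and 38.5 CPM and KO had 14.4, 12.1 and 14.2 CPM. The highest of the 9 KO libraries, 25.1 CPM, was below the lowest of the 9 WT libraries, 30.9 CPM. From the lightest to the heaviest fraction the fall was 3.00-fold, 2.96-fold and 3.16-fold, or -1.59 (SE 0.26), -1.57 (SE 0.21) and -1.66 (SE 0.23) on the log2 scale (limma adjusted p = 7.67e-05, 6.17e-06 and 7.53e-06). These calls held in each of the 6 fits that left out a gradient and in the other 7 alternative fits. Clone 1 kept 51.9%, 39.2% and 32.7% of the WT mean and clone 2 kept 20.8% to 32.6%, so clone 1, which kept more Ddx6 mRNA, also had the higher Lin28a level in each fraction, by a small margin in the high polysome. By western blot the study reported no DDX6 protein in either clone. With 1 gradient of clone 1, a relation between the Ddx6 and Lin28a levels was not tested.

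Lin28b (ENSMUSG00000063804.8, chromosome 10, 45376620 to 45486395, minus strand) was the rarest of the 9 genes and rests on few reads. Its WT counts were 7, 6 and 4 for monosomes, 13, 9 and 11 for low polysomes and 4, 9 and 9 for high polysomes. KO counts were 47, 51 and 40, then 25, 24 and 37, then 15, 15 and 18. Because it entered the test through its KO libraries, where it is high, its calls are given as values and not as support for the list. It was 3.92-fold higher in the KO monosome, at 5.76 ± 0.555 against 1.67 ± 1.01 CPM (SD, n = 3), a log2 change of 1.97 (SE 0.35, limma adjusted p = 0.000197). The low polysome change was 1.16 (SE 0.32, limma adjusted p = 0.00483), and that of the high polysome was 1.14 (SE 0.38, limma adjusted p = 0.0181). KO libraries lay above WT libraries within each fraction, with no overlap. The high polysome call was lost without WT gradient 1 (0.87, adjusted p = 0.0719) and without KO gradient 3 (1.06, adjusted p = 0.0672).

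Because a 3′ library yields about 1 read position per transcript, the paralogs can be set side by side without a length correction. Lin28b made up 3.98% ± 1.77 of the joint Lin28a and Lin28b counts in WT monosomes, 2.17% ± 0.0825 for low polysomes and 1.81% ± 0.799 for high polysomes (SD, n = 3). In KO the shares were 32.1% ± 10.4, 13.2% ± 1.43 and 11.3% ± 0.765. All 9 WT libraries were at or below 5.98% and all 9 KO libraries were at or above 10.4%. Lin28a thus stayed the more counted paralog in every library. Lin28b passed the filter only through KO libraries and had 4 to 13 counts in each WT library. The share also rises where Lin28a falls. The gap between the genotypes is therefore a description and was not tested.

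Dis3l2 (ENSMUSG00000053333.15, chromosome 1, 86703808 to 87050095, plus strand), the exonuclease that removes uridylated let-7 precursors, was also low. Its high polysome levels were 6.42, 5.30 and 8.95 CPM in WT and 13.8, 18.6 and 16 CPM in KO, with no overlap. The rise was 2.35-fold (log2 1.23, SE 0.21, limma adjusted p = 7.66e-05), and it was called in each alternative fit. The monosome change was 0.16 (95% interval -0.44 to 0.75) and the low polysome change 0.29 (-0.18 to 0.76), neither of which passed the threshold.

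Trim71, Igf2bp1 and Igf2bp3 were raised in the high polysome and were not called in the other fractions, and Igf2bp2 was not called in any. Trim71 (ENSMUSG00000079259.2, chromosome 9, 114507133 to 114564369, minus strand) had 263, 252 and 275 CPM there in WT and 367, 380 and 393 CPM in KO, a 1.44-fold rise (log2 0.53, SE 0.11, limma adjusted p = 0.000584). In the monosome it had 144, 151 and 130 CPM in WT and 116, 120 and 122 CPM in KO. The groups did not overlap there either, in the other direction, but the change of -0.24 (SE 0.12, limma adjusted p = 0.111) did not pass the threshold.

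Igf2bp1 (ENSMUSG00000013415.9, chromosome 11, 95957163 to 96005940, minus strand) was the most counted of the 9 genes. It had 631, 652 and 671 CPM in the WT high polysome and 875, 1014 and 1079 CPM in KO, a 1.51-fold rise (log2 0.60, SE 0.11, limma adjusted p = 0.000205). Its monosome change was -0.17 (95% interval -0.40 to 0.067). Igf2bp3 (ENSMUSG00000029814.10, chromosome 6, 49085223 to 49214957, minus strand) had 74.2, 94.1 and 97.2 CPM in the WT high polysome and 121, 130 and 130 CPM in KO, also a 1.44-fold rise (log2 0.53, SE 0.12, limma adjusted p = 0.000965). Without WT gradient 1 the change was 0.34 (limma adjusted p = 0.0311). Over all fractions its 9 KO libraries (99.4 to 130 CPM) lay above its 9 WT libraries (74.2 to 99.2 CPM), though by a narrow margin, and the monosome and low polysome changes of 0.26 and 0.19 were not called (limma adjusted p = 0.108 and 0.203). For Igf2bp2 (ENSMUSG00000033581.16, chromosome 16, 22059009 to 22163299, minus strand) the 3 changes were 0.034, 0.12 and -0.13, with intervals that stayed between -0.40 and 0.41. After correction for coding length, its high polysome change was called (-0.33, limma adjusted p = 0.0379).

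The AT-hook chromatin proteins HMGA1 and HMGA2 are the classical oncofetal end of the axis. Hmga2 (ENSMUSG00000056758.14, chromosome 10, 120361275 to 120476469, minus strand) had 27.1, 31.6 and 27.6 CPM in the WT monosome and 19.9, 19.9 and 12.3 CPM in KO. High polysome levels were 21.2, 24.3 and 22.3 CPM in WT and 16.5, 13.9 and 10.5 CPM in KO. All 9 KO libraries (10.5 to 19.9 CPM) lay below all 9 WT libraries (21.2 to 31.6 CPM). From monosome to high polysome the fall was 1.70-fold, 1.76-fold and 1.69-fold (log2 -0.76, -0.82 and -0.76, limma adjusted p = 0.00445, 0.00115 and 0.00218). After removal of the trend on coding length, the low and high polysome calls were lost (-0.42 and -0.40, limma adjusted p = 0.0774 and 0.0911).

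Hmga1 (ENSMUSG00000046711.15, chromosome 17, 27556497 to 27563674, plus strand) could not be compared with useful precision. In the low polysome it had 64.6, 61.8 and 6.72 CPM in WT and 51.5, 8.46 and 78.0 CPM in KO, so 1 library of each genotype stood far below its group. The SEs of its changes were 0.63 to 0.67 within fractions, beside a median SE of 0.19 to 0.21 over all genes, and none of its changes was called in the fit to all groups. In the high polysome the KO libraries (39.1, 37.0 and 18.4 CPM) lay below the WT libraries (48.8, 62.8 and 48.9 CPM), with a change of -0.84 (95% interval -2.15 to 0.48), which was called only when the fit held those groups alone (-0.85, limma adjusted p = 0.008), and which was -0.50 without KO gradient 3. A near-identical copy, Hmga1b on chromosome 11, shares 87.5% of the 50-base windows in the last 400 bases of the annotated Hmga1 3′ UTR, and uniquely aligned reads cannot cover such windows. Hmga1b was low in the same libraries, with 2.16 CPM in WT gradient 3 and 1.09 CPM in KO gradient 2 of the low polysome against 6.74 to 10.6 CPM in the other 4 libraries of that fraction. Over the tested genes these 2 libraries also stood apart from their low polysome groups. The chi-square of counts per degree of freedom was 29.7 and 21 for pairs with WT gradient 3, beside 6.83 for the other WT pair. It was 28.3 and 21.5 for pairs with KO gradient 2, beside 14.2 for the other KO pair. Low polysome values of all genes carry this limit. The cause was not tested, and values of Hmga1 and Hmga1b are uncertain.

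**Figure D3:**
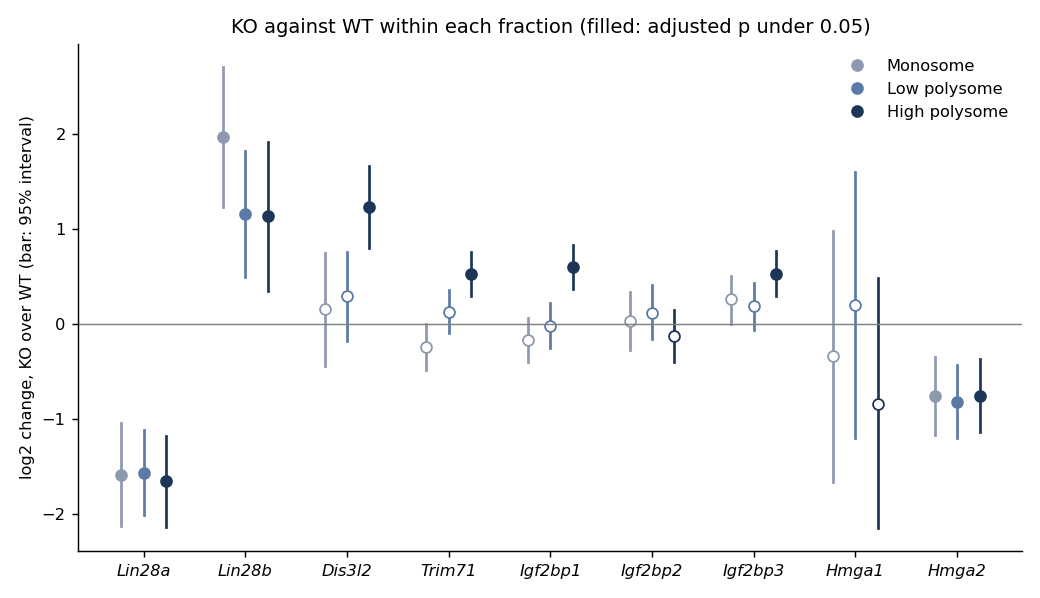
log2 change of KO over WT for each gene in each fraction, with 95% intervals, and filled points at an adjusted p under 0.05. Lin28a and Hmga2 are below 0 and Lin28b above 0 in all 3 fractions, Dis3l2, Trim71, Igf2bp1 and Igf2bp3 have a filled point in the high polysome, and Hmga1 has the widest intervals.

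The study's measure of a change in translation is the interaction, the KO difference between high polysome and monosome less the WT difference. Translation level rose for Trim71, Igf2bp1 and Dis3l2 and fell for 0 of the 9 genes, beside 17.8% of all genes called (10.7% raised, 7.09% lowered). The balance over all genes depended on the scaling, with 1357 raised and 901 lowered here, 1326 and 1360 with DESeq2, 1250 and 1744 with the compared groups only, and 936 and 1386 with library size alone. This comparison uses the same libraries as those within the monosome and the high polysome. For Trim71 the log2 ratio of high polysome to monosome in gradients 1 to 3 was 0.87, 0.74 and 1.07 for WT against 1.66, 1.65 and 1.68 for KO. The groups did not overlap, and the KO gradients of both clones were nearly equal. The change was 0.77 (SE 0.16, limma adjusted p = 0.00346). Igf2bp1 went from -0.23, -0.11 and -0.30 in WT to 0.30, 0.66 and 0.70 in KO, a change of 0.77 (SE 0.16, limma adjusted p = 0.0033). The ratio of Igf2bp1 was thus below 0 in every WT gradient and above 0 in every KO gradient. Each level is a share of its own fraction, so the sign does not say where most molecules lay. Dis3l2 went from 0.50, -0.53 and -0.026 to 0.49, 1.15 and 1.12. Here KO gradient 1, from clone 1, lay within the WT range. Its change of 1.08 (SE 0.35, limma adjusted p = 0.0395) was lost in 5 of the 6 fits without a gradient (adjusted p up to 0.226), with library size alone (0.0664), without the filter (0.104), with the compared groups only (0.0596) and with the length trend removed (0.23).

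For the genes that changed alike in all fractions, translation level did not pass the threshold. Lin28a had 0.36, -0.13 and 0.31 in WT and -0.46, 0.57 and 0.21 in KO, a change of -0.073 (95% interval -0.80 to 0.65, limma adjusted p = 0.909). For Hmga2 the values were -0.35, -0.37 and -0.30 in WT and -0.27, -0.50 and -0.22 in KO, a change of 0.0063 (-0.56 to 0.57). A p that misses the threshold does not show equal translation, and the interval of Lin28a is the wider one. Lin28b changed by -0.83 (-1.91 to 0.25), which was -1.44 without WT gradient 1 and -0.32 without WT gradient 3. Igf2bp3 changed by 0.27 (-0.081 to 0.63), or 0.018 without WT gradient 1, Igf2bp2 by -0.16 (-0.57 to 0.25) and Hmga1 by -0.50 (-2.37 to 1.37). Without KO gradient 3 the value of Hmga1 was -0.045.

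**Figure D4:**
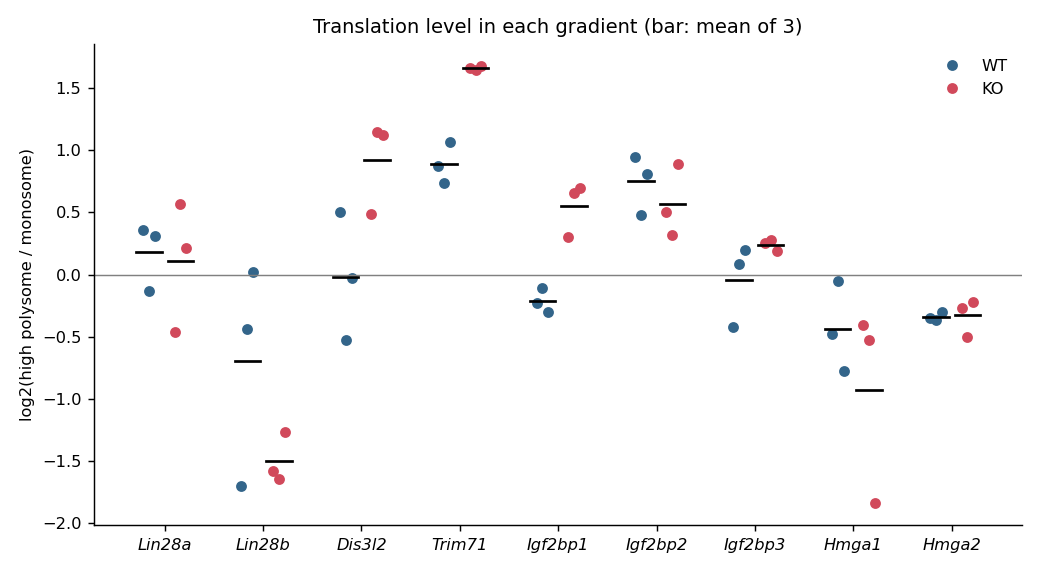
log2(high polysome / monosome) of each gene in each gradient (blue WT, red KO, 0.5 CPM added to both levels), with a bar for the mean of 3. KO and WT gradients are apart for Trim71 and Igf2bp1 and overlap for the other genes. Such gaps were not counted over all genes.

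Coding length moved with the KO effect over all genes, and this touches the long genes of the axis. The median KO effect was -0.54 where the coding sequence had at most 500 nt and 0.57 where it exceeded 3000 nt. Trim71 and Dis3l2 have coding lengths of 2568 and 2613 nt. The 1735 tested genes within 20% of the length of Trim71 had a median of 0.42, beside its own 0.77. With the trend on coding length removed, the change of Trim71 was 0.36 (limma adjusted p = 0.137) and that of Dis3l2 was 0.66 (limma adjusted p = 0.23), and neither was called. In the high polysome the rise of Trim71 was also lost (0.23, limma adjusted p = 0.0702). Igf2bp1, with 1734 nt and a median of 0.21 among the 2565 genes near its length, kept its call in all 13 alternative fits. Igf2bp2 and Igf2bp3, of nearly the same length at 1779 and 1740 nt, did not pass the threshold. At the short end, Hmga2 (327 nt) had 0.0063 beside a median of -0.55 among 414 genes near its length, and Lin28a (630 nt) had -0.073 beside -0.44. Hmga1 (324 nt) had -0.50 beside -0.55, and Lin28b (816 nt) had -0.83 beside -0.30.

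**Figure D5:**
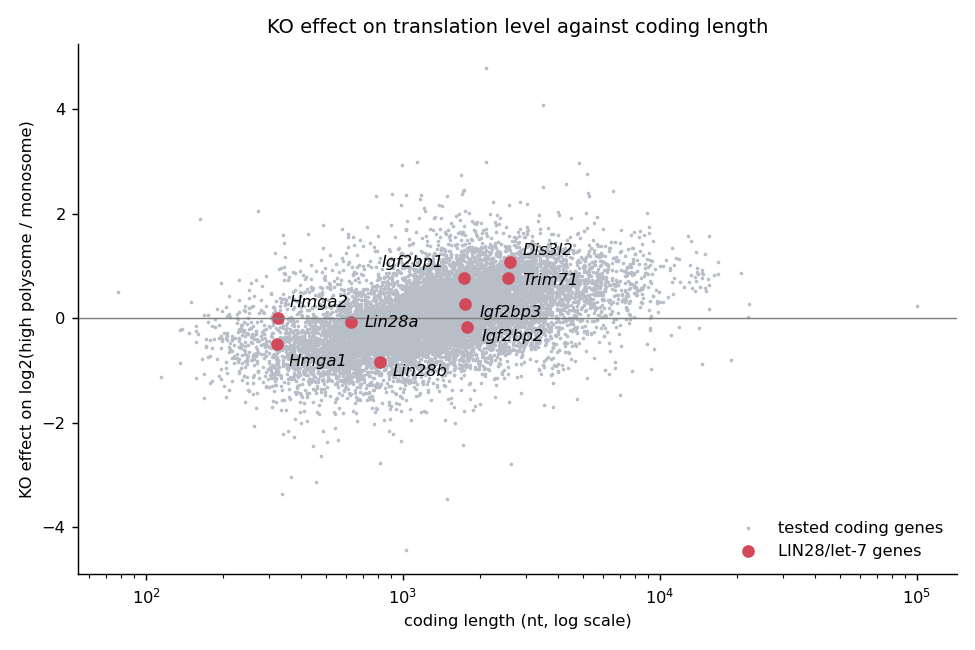
KO effect on log2(high polysome / monosome) against coding length in nt (log scale) for tested coding genes in grey, with the 9 genes in red. Dis3l2, Trim71 and Igf2bp1 lie on the rising side of the cloud, and Igf2bp2 lies below Igf2bp1 at nearly the same length.

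The machinery that makes and uridylates let-7 was examined as a list of 9 genes, of which 8 were tested (Tarbp2 did not pass the filter). Translation level rose for 2, Dgcr8 and Khsrp, and fell for 0 (10.7% and 7.09% of all genes), with a median change of 0.56 beside 0.022 over all genes. Coding length was not matched in this comparison. Genes with coding sequences over 2000 and up to 3000 nt had a median of 0.41, and longer ones 0.57. Khsrp has 2247 nt. Dgcr8, the RNA-binding partner of the nuclear nuclease DROSHA, rose by 0.99 (SE 0.25, limma adjusted p = 0.00992), and Khsrp, which binds let-7 precursors and promotes their processing, rose by 0.59 (SE 0.18, limma adjusted p = 0.0247). Xpo5, the exporter of precursors, had 0.84 (SE 0.29, limma adjusted p = 0.0505) and Drosha had 0.53 (SE 0.20, limma adjusted p = 0.0757). Within fractions 0 were raised and 1 lowered for monosomes, 0 raised and 3 lowered for low polysomes, and 3 raised and 1 lowered for high polysomes. Over all genes 18.6% were raised and 20.1% lowered for monosomes, 23.4% and 24.3% for low polysomes, and 25.3% and 21.1% for high polysomes.

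A list of 20 let-7 targets outside the 9 genes had 17 tested genes, while Ccnd2, Myc and Acvr1c were too low. Translation level rose for 4 and fell for 1 (10.7% and 7.09% of all genes), with a median of 0.10. Coding length was not matched here either. Irs2, an adaptor of insulin and IGF signalling, rose by 1.35 (SE 0.23, limma adjusted p = 0.000932). Cdc25a, a phosphatase that drives the cell cycle, rose by 0.99 (SE 0.18, limma adjusted p = 0.00166). Igf1r, the IGF receptor, rose by 1.20 (SE 0.25, limma adjusted p = 0.00356), and Nr6a1, an orphan nuclear receptor, fell by 0.69 (limma adjusted p = 0.023). Within the fractions both directions were seen, with 4 raised and 5 lowered for monosomes, 4 raised and 3 lowered for low polysomes and 7 raised and 6 lowered for high polysomes, beside the shares of all genes given above. The G1 cyclin Ccnd1 and its partner kinase Cdk6, picked out after their values were seen, went opposite ways in all 3 fractions. Ccnd1 changed by -1.11, -0.55 and -0.98, and Cdk6 by 1.15, 1.44 and 1.57.

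Over the whole table, 406 tested genes had a let-7 8mer in the 3′ UTR, 7 of the 9 genes among them. Of these 14.8% were raised and 5.42% lowered in translation level (10.7% and 7.09% of all genes), with a median change of 0.12. High polysome levels in KO were raised for 34.5% and lowered for 19.2% (25.3% and 21.1% of all genes), with a median of 0.15. Monosome levels were raised for 20.9% and lowered for 17.7% (18.6% and 20.1% of all genes), with a median of -0.013. No test was made of these shares, and the genes were not matched for coding length or 3′ UTR length. Of the 12705 genes behind the shares of all genes, 11773 had a coding length.

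Of 4 mRNAs described as repressed by TRIM71, 3 were tested and Egr1 was too low. Cdkn1a, which encodes the cell cycle inhibitor p21, rose in all 3 fractions, by 0.53, 0.76 and 0.75 (limma adjusted p = 0.00348, 9.85e-05 and 0.000109), while its translation level changed by 0.22 (SE 0.19, limma adjusted p = 0.441). Rbl2, a member of the retinoblastoma family, rose in the high polysome by 1.24 (SE 0.19, limma adjusted p = 3.08e-05) and in translation level by 1.63 (SE 0.30, limma adjusted p = 0.00136). Its monosome and low polysome changes, -0.39 and -0.33, were not called (limma adjusted p = 0.178 and 0.133). For Rbl1 the 3 changes within fractions were 0.038, 0.18 and 0.24 and none was called.

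A pair of marker lists was set beside Lin28a and Hmga2. The tested markers of the post-implantation epiblast were lower in KO, while the ESC markers went both ways. Of 4 markers of the post-implantation epiblast, 3 were tested, and all 3 were lower in the KO monosome and high polysome and 2 of 3 in the low polysome. Their summed level was 103 to 149 CPM in the WT libraries and 32.7 to 80.4 CPM in the KO libraries, while Fgf5, which defines that state, had 0 counts in each library. Otx2 changed by -2.75, -2.47 and -2.52 and Dnmt3b by -1.47, -1.20 and -0.52. Of the 9 ESC markers, 2 were raised and 2 lowered in the KO monosome, 3 raised and 0 lowered in the low polysome, and 1 raised and 4 lowered in the high polysome. Sox2 changed by -0.63 in the monosome and -0.42 in the high polysome, and Tfcp2l1 by -0.94 and -0.39. Klf4 was raised in all 3 fractions, by 0.42, 0.39 and 0.41, and Pou5f1 and Zfp42 were not called in any. The part of either list in the values of Lin28a and Hmga2 was not tested.

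Finally, the genes most like 3 of the members over the 18 libraries were sought by Pearson's r of log2 CPM, among genes with a mean of at least 10 CPM. For Lin28a these were Cidea (r = 0.961), Crabp1 (0.951) and Cryge (0.950). Nearest to Lin28b were Gm10522 (0.950), Msi2 (0.943) and Ncmap (0.925). For Trim71 they were Igf1r (0.987), Crebbp (0.975) and Igsf3 (0.974), with coding lengths of 4110, 7326 and 3585 nt. The libraries share gradients, genotype and fraction, so these values are descriptions.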

How the data were processed

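The authors made 3′ end libraries (QuantSeq 3′ FWD, 50-base reads), trimmed them (cutadapt 1.14), aligned them to mm10 (STAR 2.5.3a, unique reads only) and counted reads per gene by strand (featureCounts 1.5.3, Gencode M14). The deposited values are raw counts, without molecular identifiers, so PCR copies are included and the limits given for counts of 0 cover counting error only. The 95% intervals of changes are those of limma and rest on the spread between libraries. Spike-in sequences (92) were left out. Symbols, coding lengths and 3′ UTRs came from Gencode M21 on the same assembly (51274 of 51467 identifiers matched).

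Genes with at least 3 CPM in at least 3 libraries (12705) were scaled by TMM. Group means of the 6 groups were then fitted jointly to the 18 libraries with limma and voom (limma 3.58.1, edgeR 4.0.16, R 4.3.3). Calls were two-sided, with p-values adjusted by Benjamini-Hochberg across the whole set of tested genes and a threshold of 0.05. limma, the filter and the interaction follow the study's methods. Ratios for single gradients had 0.5 CPM added. Statements that groups did or did not overlap describe single genes, and the share of all genes without overlap was not counted. Alternatives were edgeR's quasi-likelihood test, DESeq2 1.42.0, library size alone, no filter, a left-out gradient, a replicate block, compared groups only and removal of the trend on coding length. The main fit was run on simulated counts drawn independently for each library. That run does not cover the pairing of fractions and is not used as support here. Fractions of a gradient come from 1 culture, which pairs them, and their deviations from the group means correlated at -0.159 to 0.415. Separate cultures per replicate are not stated, so p-values measure the spread between these libraries.

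The 9 genes and all lists were chosen with earlier results of these data known. Named genes were the 9 genes, Ddx6, up to 4 genes per pathway list with the smallest adjusted p for the KO effect on translation level, and the 3 genes nearest in profile to Lin28a, Lin28b and Trim71. Outside this rule, Ccnd1, Cdk6, Hmga1b and single genes of the marker lists were named after their values were seen.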

Additional observations from a re-analysis of the deposited data

Results flagged for a closer look

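The KO effect differed between the high polysome and the monosome, by the interaction term in limma, for 3 of the 9 genes, beside 17.8% of all genes. The difference was 1.08 on the log2 scale for Dis3l2 (adjusted p = 0.0395), 0.77 for Trim71 (adjusted p = 0.00346) and 0.77 for Igf2bp1 (adjusted p = 0.0033). The call of Dis3l2 was lost in 5 of the 6 fits without a gradient. With the length trend removed, neither Dis3l2 (0.66, limma adjusted p = 0.23) nor Trim71 (0.36, limma adjusted p = 0.137) was called. Spike-in sequences, which entered no comparison, had 28 to 169 counts per library, or at most 0.00217% of the gene counts.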

How the results depend on the processing

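The number of the 9 genes called changed by over 1.5 times under 1 alternative, removal of the trend on coding length, which gave 4 in place of 2 for high polysome against monosome in WT and 1 in place of 3 for the KO effect on translation level. Over all genes this removal took the KO effect from 1357 raised and 901 lowered of 12705 to 476 and 319 of 11773. In WT it took the calls from 3674 and 4086 to 3590 and 3292. Leaving out a gradient gave 2 to 3 in both comparisons, 3 in the monosome and low polysome, and 6 to 7 in the high polysome. Over all genes those fits gave 471 to 1503 raised and 277 to 1115 lowered for the KO effect. Over 585 refitted changes of single genes, 531 kept direction and side of the threshold, 15 lost a call, 6 gained one and 33 turned sign. One turned value was called, that of Hmga2 in WT with the length trend removed (0.57). The other turned values did not pass the threshold. For high polysome against monosome in WT they were 0.018 for Dis3l2 without the filter, 0.0059 (DESeq2), 0.10 (no filter) and 0.0086 (compared groups only) for Igf2bp3, and 0.49 for Hmga1 with the length trend removed. Without a gradient they ranged from -0.25 to 0.12 for Dis3l2 and from -0.17 to 0.20 for Igf2bp3. For the KO effect on translation level, Hmga2 gave -0.0035 (edgeR), -0.060 (DESeq2), -0.12 (library size alone), -0.10 (no filter), -0.083 (compared groups only) and -0.081 to 0.10 without a gradient. Lin28a gave 0.35 and Hmga1 0.048 with the length trend removed, and Lin28a gave -0.32 to 0.22 without a gradient. Within fractions, ranges without a gradient were -0.052 to 0.36 for Dis3l2 and -0.047 to 0.14 for Igf2bp2 in the monosome, and -0.11 to 0.023 for Igf2bp1 and -0.90 to 1.10 for Hmga1 in the low polysome, where Igf2bp1 also gave 0.018 without the filter. Calls gained elsewhere were Igf2bp3 in the monosome without the filter (0.35) and Hmga1 in WT with the compared groups only (-0.41). The cause was not tested.

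With a replicate block, the gradient where fractions are compared and the number 1 to 3 otherwise, 2, 3, 3, 3 and 7 genes were called in the 5 comparisons, as without it, and only Hmga2 turned sign (-0.00021 for the KO effect on translation level). WT and KO gradients of the same number were not treated as pairs in the main fit (deviations correlated at -0.448 to 0.221, over 0.1 in 2 of 9). Gradients of unlike number were not compared across genotypes, so a batch shared in another way would not be seen.

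Depth limits Lin28b most, with 4 to 13 counts in each WT library. Clone 1 has 1 gradient. In the low polysome, WT gradient 3 and KO gradient 2 stood apart from their groups over the tested genes. The 3′ UTRs are those of the annotation.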
